A study of Homo sapiens with 12 samples.

Results

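The guanylate-binding proteins GBP1 to GBP7 were followed in RNA-seq of U937, a human myelomonocytic acute myeloid leukemia (AML) cell line. Members were taken as all rows of the deposited transcript table whose gene symbol was GBP1 to GBP7. The table held 33 such transcripts among 197782, and 15 of the 33, from all 7 genes, had at least 1 read, against 68785 transcripts with reads in the whole table. There were 12 libraries, 3 in each of 4 groups. Untreated cells received neither drug. The DAC group received 200 nM decitabine, a DNA hypomethylating nucleoside, given afresh on 3 consecutive days. The ATRA group received 1 µM all-trans retinoic acid, the ligand of the retinoic acid receptors, and the DAC + ATRA group received both agents at these doses. The labels give 3 treatment days for both groups with ATRA. The study's methods instead give ATRA together with the last of the 3 decitabine doses, so the length of ATRA exposure is uncertain. The sample labels give 20% FCS and 5 ng/ml human GM-CSF for all groups, untreated cells included, whereas the study's methods for its cell lines give less FCS and name no GM-CSF, so the medium is uncertain. The sample labels give 96 h for untreated cells and 72 h for treated cells, whereas the series description gives 72 h for the harvest without separating groups. The replicates were described as technical triplicates of this single cell line, so the p-values below measure the spread between these libraries only.

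Guanylate-binding proteins are large GTPases of the dynamin superfamily and are among the genes most responsive to interferon gamma. They assemble on intracellular bacteria and on the vacuoles that hold pathogens, and in macrophages they promote inflammasome activation by bacterial lipopolysaccharide and DNA. GBP1, GBP2 and GBP5 end in a CaaX motif, the site at which a prenyl lipid is attached to anchor the protein in membranes. Interferon-responsive promoters often carry an interferon-stimulated response element (ISRE), read by ISGF3 and by factors of the IRF family, or a gamma-activated site (GAS). The 7 genes lie in one cluster on chromosome 1 of hg38, from 89006679 to 89388160 over the transcripts in the table, with GBP6 on the plus strand and the other 6 on the minus strand.

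The promoter letters are shown because GBP1 and GBP4 were both highest in the libraries with both agents. RefSeq (GRCh38.p14) gave a window of 250 bases before and 50 bases after the start for GBP1, GBP3, GBP4, GBP6 and GBP7, and the promoters of GBP2 and GBP5 were not analysed here. The windows were searched on both strands for an ISRE core, taken as TTTC, 2 bases of any kind and TTTC again, and for a GAS core written TTCNNNGAA. The ISRE core occurred in 3.57% of 35116 human promoter windows of the same length and the GAS core in 7.66%. GBP1, GBP3 and GBP4 each held 1 ISRE core, and GBP6 and GBP7 held neither core in these windows. The 30 bases around each ISRE core follow, on the minus strand and 5′ to 3′, with the core in capitals.
GBP1, chr1:89065316-89065345, core at -127 to -118 from the start: aacgaagtacTTTCAGTTTCatattactct
GBP3, chr1:89022845-89022874, core at 3 to 12 past the start: aaagaagtacTTTCAGTTTCattaggctct
GBP4, chr1:89198927-89198956, core at -4 to 6 around the start: gtgcatgtccTTTCAATTTCggttctcaca
The GBP1 and GBP3 stretches were identical at 25 of 30 aligned positions, and each was identical to the GBP4 stretch at 16 of 30. GBP3 also held a GAS core at -15 to -7, shown in capitals.
GBP3 GAS, chr1:89022863-89022891, minus strand: actgagtcacTTCCTTGAAagaagtactt
The whole 250 bases upstream of the start are given for GBP4 and GBP1. Among the members tested, their levels differed most between both agents and no treatment on the log2 scale. Capitals again mark the ISRE core, of which the GBP4 stretch holds the first 4 bases.
GBP1 upstream, chr1:89065209-89065458, minus strand: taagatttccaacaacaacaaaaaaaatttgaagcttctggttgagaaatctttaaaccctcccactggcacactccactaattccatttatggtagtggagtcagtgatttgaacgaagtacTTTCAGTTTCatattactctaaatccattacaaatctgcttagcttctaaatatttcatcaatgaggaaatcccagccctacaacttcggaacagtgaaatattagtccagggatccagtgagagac
GBP4 upstream, chr1:89198943-89199192, minus strand: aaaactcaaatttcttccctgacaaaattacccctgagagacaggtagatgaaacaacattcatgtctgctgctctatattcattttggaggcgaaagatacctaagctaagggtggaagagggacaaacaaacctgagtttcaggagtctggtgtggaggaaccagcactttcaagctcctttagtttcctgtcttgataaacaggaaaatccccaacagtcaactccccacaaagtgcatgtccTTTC
CpG sites are the targets of DNA methylation. The 300 bases of each window held 3 CpG in GBP1, 0 in GBP3, 3 in GBP4, 1 in GBP6 and 0 in GBP7, against a median of 14 over all promoter windows. The paper describes the promoter region of GBP4 as dense in CpG, though short of the criteria for an island. It also reports demethylation at GBP4 by decitabine in U937, from methylation arrays. Its region was not matched to the window used here. A match is a description of letters, and neither binding nor methylation was measured in these libraries.

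The values are normalized read counts, meaning reads of a transcript divided by a size factor of its library, as deposited. Each value was a whole number of reads times a step shared by its library, so reads could be recovered. They summed to between 8042435 and 10683593 per library, and 3 reads corresponded to 2.50 to 3.71 normalized reads. The 15 transcripts held 18792 reads in all, of which 17729 were from GBP5. This is the depth behind the values and not a comparison of levels between genes, since reads were not divided by length. Over the 3 libraries of a group, GBP4 had 3 reads in untreated cells, 9 with DAC, 34 with ATRA and 552 with both agents, and GBP1 had 4, 22, 9 and 133. GBP2, GBP6 and GBP7 had at most 22, 7 and 1 reads in any group and did not enter the filtered fits.

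**Figure D1:**
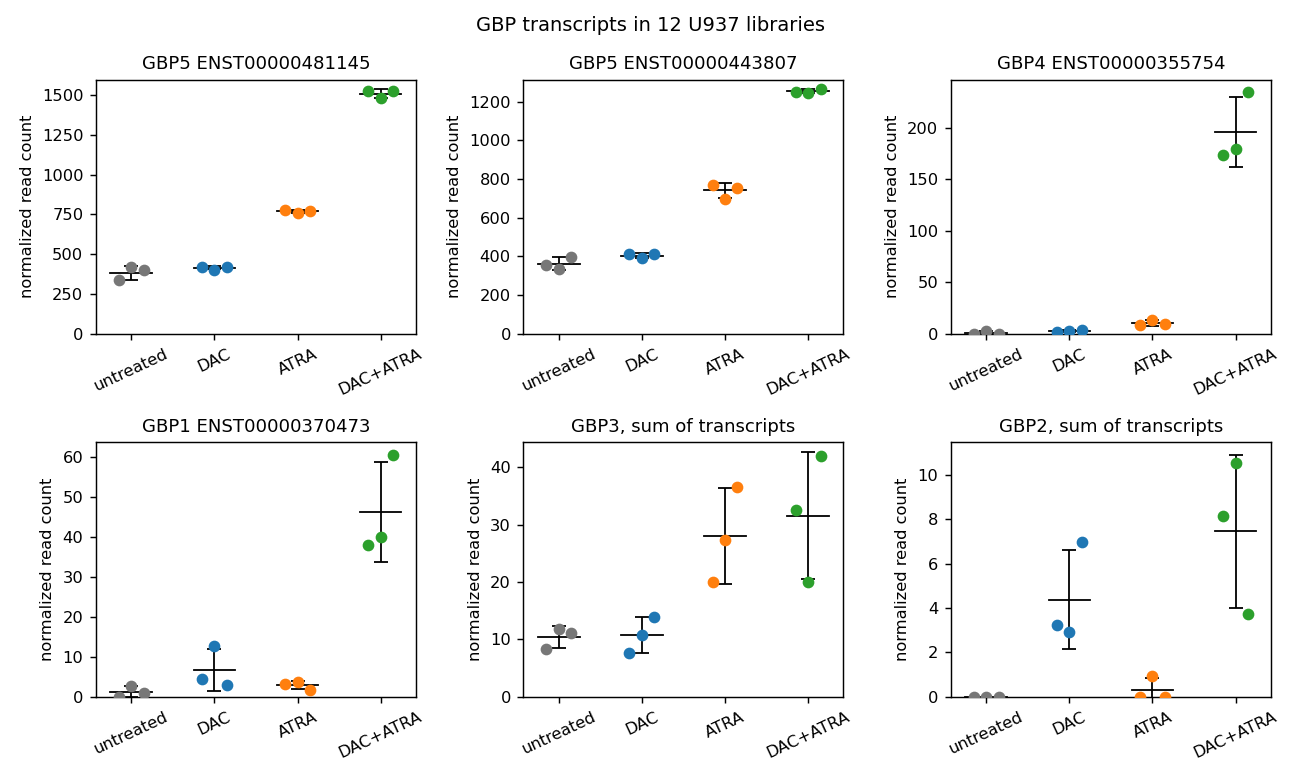
Normalized read counts (y axes, linear and starting at 0) of 4 GBP transcripts and of the summed transcripts of GBP3 and GBP2 in 12 libraries. Points are libraries, horizontal lines the mean of 3 and bars its SD. In the DAC + ATRA group GBP4 lies between 174 and 235, against at most 13.7 in the other 9 libraries, and both GBP5 transcripts lie above all other libraries.

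GBP5, a member that promotes assembly of the NLRP3 inflammasome, was already detected in untreated cells. Its reads were assigned to the protein-coding transcript ENST00000443807 and the retained-intron transcript ENST00000481145 of gene ENSG00000154451. The first lies on chromosome 1 from 89262698 to 89272804 and the second from 89258950 to 89266579. The protein-coding transcript measured 357, 334 and 400 in untreated cells, 412, 391 and 411 with DAC, 770, 699 and 755 with ATRA, and 1252, 1247 and 1267 with DAC + ATRA. The untreated and DAC libraries overlapped, the ATRA libraries lay above both, and the DAC + ATRA libraries lay above all others. With ATRA, GBP5 rose by a log2 fold change of 1.03 (SE 0.10, adjusted p = 1.5e-07 by limma, Benjamini-Hochberg over 9016 protein-coding transcripts), and with DAC + ATRA by 1.79 (SE 0.10, adjusted p = 4.19e-12). Under DAC alone the difference was 0.16 (95% interval -0.05 to 0.37, adjusted p = 0.197), which lay under the median of all tested protein-coding transcripts, 0.22. That median was 0.00 with ATRA and 0.20 with DAC + ATRA on the deposited scale, and under TMM scaling it was 0.02 for DAC and 0.06 for the combination, while the DAC value of GBP5 from edgeR was -0.05. DAC + ATRA exceeded ATRA alone by 0.76 (SE 0.10, adjusted p = 2.33e-06) and DAC alone by 1.63 (SE 0.10, adjusted p = 1.96e-10).

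The retained-intron transcript ENST00000481145 of GBP5 measured 335, 417 and 398 in untreated cells, 418, 403 and 421 with DAC, 777, 761 and 771 with ATRA, and 1522, 1478 and 1526 with DAC + ATRA. Again only the untreated and DAC libraries overlapped. In bulk RNA, a change in the share of cells that express a gene and a change in RNA per cell cannot be told apart. In the fit over all 19373 transcripts it rose by 1.01 with ATRA (adjusted p = 8.5e-08) and by 1.98 with DAC + ATRA (adjusted p = 3.46e-14), and it differed by 0.12 with DAC (95% interval -0.10 to 0.34, adjusted p = 0.384). The remaining GBP5 transcript with reads, ENST00000471171, stayed under 10 in every library, between 0.974 and 6.97.

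The canonical GBP5 transcript ENST00000370459 had 0 reads in all 12 libraries. Of the 4699 bases of ENST00000443807, 2769 are shared with no other transcript of that strand in GENCODE 44, and all of them are intronic in the canonical transcript. For ENST00000481145 these are 1231 of 4112 bases, also all intronic there. The sources used here do not give how reads shared by several transcripts were handled, so these values describe the reads assigned to 2 intron-holding models. The canonical transcript itself has 2817 of 6812 bases shared with no other transcript of the strand in its GENCODE 44 model, which is version 8, whereas the table names version 7, so its unshared bases in the table may differ. The canonical models of GBP2 and GBP3 also had 0 reads, whereas for GBP1, GBP4, GBP6 and GBP7 the canonical model held reads.

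**Figure D2:**
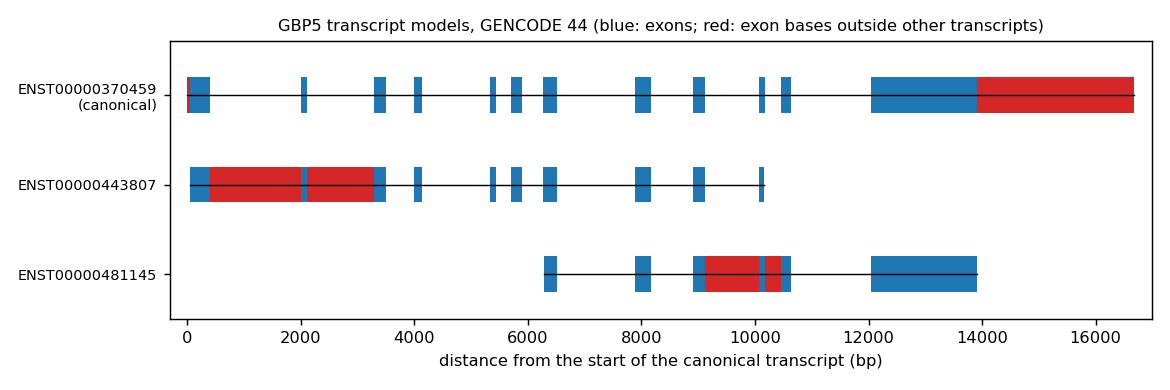
GBP5 transcript models of GENCODE 44 drawn to scale against the distance in bp from the start of the canonical transcript (x axis), with exons in blue and exon bases outside every other transcript of the strand in red. The red stretches of ENST00000443807 and ENST00000481145, 2769 and 1231 bases, fall in introns of the canonical transcript, which had 0 reads in 12 libraries.

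The ratio of ENST00000481145 to ENST00000443807 described whether both GBP5 transcripts moved alike. It was 1.06 ± 0.164 (SD, n = 3) in untreated cells, 1.02 ± 0.00834 with DAC, 1.04 ± 0.0427 with ATRA and 1.20 ± 0.0158 with both agents. The DAC + ATRA libraries, 1.18 to 1.22, lay above all DAC and all ATRA libraries, with p = 0.1 in each exact two-sided permutation test, the smallest that 3 against 3 libraries allow. They overlapped the untreated libraries, which ranged from 0.941 to 1.25 (exact permutation p = 0.4).

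GBP4 (ENSG00000162654) was near the floor of detection without ATRA. Its transcript ENST00000355754 lies on chromosome 1 from 89181144 to 89198942, and 5078 of its 6141 bases are outside other transcripts of the strand. It measured 0, 2.73 and 0 in untreated cells, 2.16, 2.92 and 3.98 with DAC, 8.45, 13.7 and 9.16 with ATRA, and 174, 179 and 235 with DAC + ATRA. ATRA libraries lay above DAC and untreated libraries, which overlapped, and DAC + ATRA libraries lay far above all others. From the reads pooled over libraries, GBP4 with DAC + ATRA was 18.4-fold the ATRA level (exact conditional 95% interval 13.0 to 26.8) and 63.3-fold the DAC level (33.1 to 139), intervals that cover counting error only. Against untreated cells, with 3 reads in all, the ratio was 210 with an interval of 71.5 to 1021. GBP4 rose with ATRA by a log2 fold change of 2.85 (SE 0.43, adjusted p = 5.39e-05) and did not pass the threshold with DAC (1.35, SE 0.43, adjusted p = 0.0128, limma). It passed there with a pseudocount of 0.1 (3.32, adjusted p = 0.00769), without a filter (adjusted p = 0.00793) and without untreated library 2 (1.98, adjusted p = 0.000153). DAC + ATRA exceeded DAC alone by 5.62 (SE 0.43, adjusted p = 5.84e-09). GBP4 met the filter of at least 10 normalized reads in 3 libraries through the DAC + ATRA group, in which it was high, and ATRA library 8 was the only other one above 10.

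GBP1 (ENSG00000117228), the member that coats cytosolic bacteria and recruits caspase-4 to them, was low in every group but one. Its canonical transcript ENST00000370473, on chromosome 1 from 89052319 to 89065208, measured 0, 2.73 and 0.924 in untreated cells, 4.32, 12.7 and 2.99 with DAC, 3.17, 3.64 and 1.66 with ATRA, and 38.0, 40.0 and 60.6 with DAC + ATRA. DAC + ATRA libraries did not overlap any others. DAC libraries lay above untreated ones, by little except for DAC library 5. ATRA and untreated libraries overlapped. GBP1 met the filter through the DAC + ATRA group, in which it was high, with DAC library 5 as the only other one above 10, and its adjusted p-values carry that limit. GBP1 rose with DAC + ATRA by 4.58 against untreated cells (SE 0.49, adjusted p = 9.36e-08), by 2.80 against DAC (adjusted p = 0.000286) and by 3.63 against ATRA (SE 0.49, adjusted p = 3.38e-06). The rise with DAC alone was 1.78 (SE 0.49, adjusted p = 0.00500, limma). Without DAC library 5 it was 1.26 (adjusted p = 0.0441), without untreated library 1 it was 1.31 (adjusted p = 0.0401) and without untreated library 3 the adjusted p was 0.0141. With all libraries kept, the adjusted p was 0.0219 with edgeR and TMM, 0.0224 with DESeq2, 0.0172 with the untreated and DAC libraries alone and 0.0107 with a pseudocount of 0.1, so the call did not hold under these settings either. With ATRA alone the difference of GBP1 was 0.95 (95% interval -0.08 to 1.98, adjusted p = 0.232). The retained-intron transcripts ENST00000495131 and ENST00000459831 of GBP1 had 3 reads each, all in DAC or DAC + ATRA libraries.

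GBP3 (ENSG00000117226), a close relative of GBP1, was spread over 4 transcripts with reads, of which the retained-intron ENST00000370482 and the nonsense-mediated-decay ENST00000235878 held most. The first measured 6.43, 10.01 and 9.24 in untreated cells, 2.16, 6.82 and 9.96 with DAC, 12.7, 20.0 and 31.6 with ATRA, and 26.2, 13.7 and 22.2 with DAC + ATRA. The second ranged from 1.82 to 1.85 in untreated cells, 3.90 to 5.40 with DAC, 4.22 to 6.37 with ATRA and 3.62 to 16.1 with DAC + ATRA. Protein-coding ENST00000461384 had 9 reads, all in ATRA or DAC + ATRA libraries, and ENST00000493594 had 1. Of the bases of ENST00000370482, 656 lie outside other transcripts of the strand, and 655 of these are intronic in the canonical GBP3 transcript. For ENST00000235878 all 142 such bases are intronic there. The canonical GBP3 transcript had 0 reads, so GBP3 values describe reads assigned to these other models. In the fit over all transcripts ENST00000370482 did not pass with ATRA (1.16, SE 0.41, adjusted p = 0.0726) or with DAC + ATRA (1.16, SE 0.41, adjusted p = 0.0209), and passed from DAC to DAC + ATRA (1.70, SE 0.41, adjusted p = 0.00501). It reached 10 normalized reads in all 6 libraries with ATRA, in 1 untreated library and in none with DAC alone, so it too entered the fit through groups in which it was high. Summed over transcripts, GBP3 was 10.4 ± 1.88 (SD, n = 3) in untreated cells, 10.7 ± 3.19 with DAC, 28.0 ± 8.30 with ATRA and 31.5 ± 11.04 with both agents. The untreated and DAC libraries overlapped, as did the ATRA and DAC + ATRA libraries, and the second pair lay above the first. In the fit over 10240 summed symbols, GBP3 rose by 1.32 with ATRA (SE 0.32, adjusted p = 0.00517) and by 1.47 with DAC + ATRA (SE 0.32, adjusted p = 0.000432). It rose by 1.45 from DAC to DAC + ATRA (SE 0.32, adjusted p = 0.00196). Adding DAC to ATRA gave 0.14 (95% interval -0.51 to 0.80, adjusted p = 0.739), and DAC alone 0.02 (95% interval -0.64 to 0.68, adjusted p = 0.964). The ATRA call was lost in 5 of 12 fits that left out 1 library, namely untreated 1, 2 or 3 or ATRA 8 or 9 (log2 fold change 1.11 to 1.41, adjusted p up to 0.0296 without ATRA library 9). From DAC to DAC + ATRA it was lost in 3 of 12, without DAC library 4 or DAC + ATRA library 10 or 12 (largest adjusted p 0.0228).

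GBP2 (ENSG00000162645), which acts with GBP1 on intracellular bacteria, had no read in untreated cells. ENST00000464839, annotated to nonsense-mediated decay, measured 3.24, 2.92 and 3.98 with DAC, 0, 0.910 and 0 with ATRA, and 8.14, 8.42 and 3.71 with DAC + ATRA. DAC and ATRA libraries did not overlap (exact permutation p = 0.1), and DAC libraries overlapped those with both agents. Against a floor of 3 reads over the untreated group, the sum of GBP2 transcripts was at least 4.79-fold higher with DAC and at least 8.37-fold higher with DAC + ATRA. With counting error on both groups, the exact conditional 95% lower limits of these ratios were 3.37 and 6.25. The other GBP2 transcript, ENST00000493802, had 5 reads in 2 libraries. ENST00000464839 has 0 bases outside other transcripts of the strand, and the canonical transcript ENST00000370466 had 0 reads. These values thus describe the reads assigned to these models. GBP2 thus had reads in every library with DAC and in 1 of the 6 libraries without it, and these counts were too small for a test across transcripts.

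GBP6 (ENST00000370456) had 0, 2, 3 and 7 reads in the untreated, DAC, ATRA and DAC + ATRA groups, and at most 4.21 normalized reads in a library. GBP7 (ENST00000294671) had a single read, in DAC + ATRA library 12. The GBP6 libraries with both agents, 1.24 to 4.21, lay above all untreated and all DAC libraries (exact permutation p = 0.1 each, the smallest possible) and overlapped those with ATRA. The lowest of them, 1.24, and the highest with DAC, 1.08, were 1 read each. Their 7 reads against 0 in untreated cells gave an exact conditional 95% lower limit of 1.64 for the ratio. Against the 2 reads with DAC the interval of the ratio was 0.687 to 35.6, which includes 1. For GBP7, differences were not detectable at this depth.

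The 3 protein-coding GBP transcripts that could be tested are set against the background of all 9016. GBP1 and GBP4 reached the minimum of 10 normalized reads in 4 libraries each, 3 of them those with both agents, so they entered the test through the group in which they were high, and the counts are a description only. With DAC 1 of the 3 passed, GBP1, where 30.6% of all tested transcripts were called higher. With ATRA 2 passed, GBP4 and GBP5, where 6.47% were called higher. With DAC + ATRA all 3 tested transcripts passed against untreated cells, where 32.6% were called higher. All 3 tested also passed against DAC alone (6.08% called higher) and against ATRA alone (25.9%). In the fit over all transcripts, ENST00000481145 of GBP5 passed in each of these comparisons but DAC alone, and ENST00000370482 of GBP3, with the same limit, only from DAC to both agents (22.2% called higher with DAC, 5.11% with ATRA, 25.5% with both, 5.18% from DAC to both and 19.1% from ATRA to both). In the fit over summed symbols the shares called higher, beside the GBP3 calls, were 29.1% with DAC, 6.86% with ATRA, 31.5% with DAC + ATRA, 6.84% from DAC to DAC + ATRA and 25.4% from ATRA to DAC + ATRA. The 3 treated groups were set against the same untreated libraries, so these comparisons are not independent of each other.

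**Figure D3:**
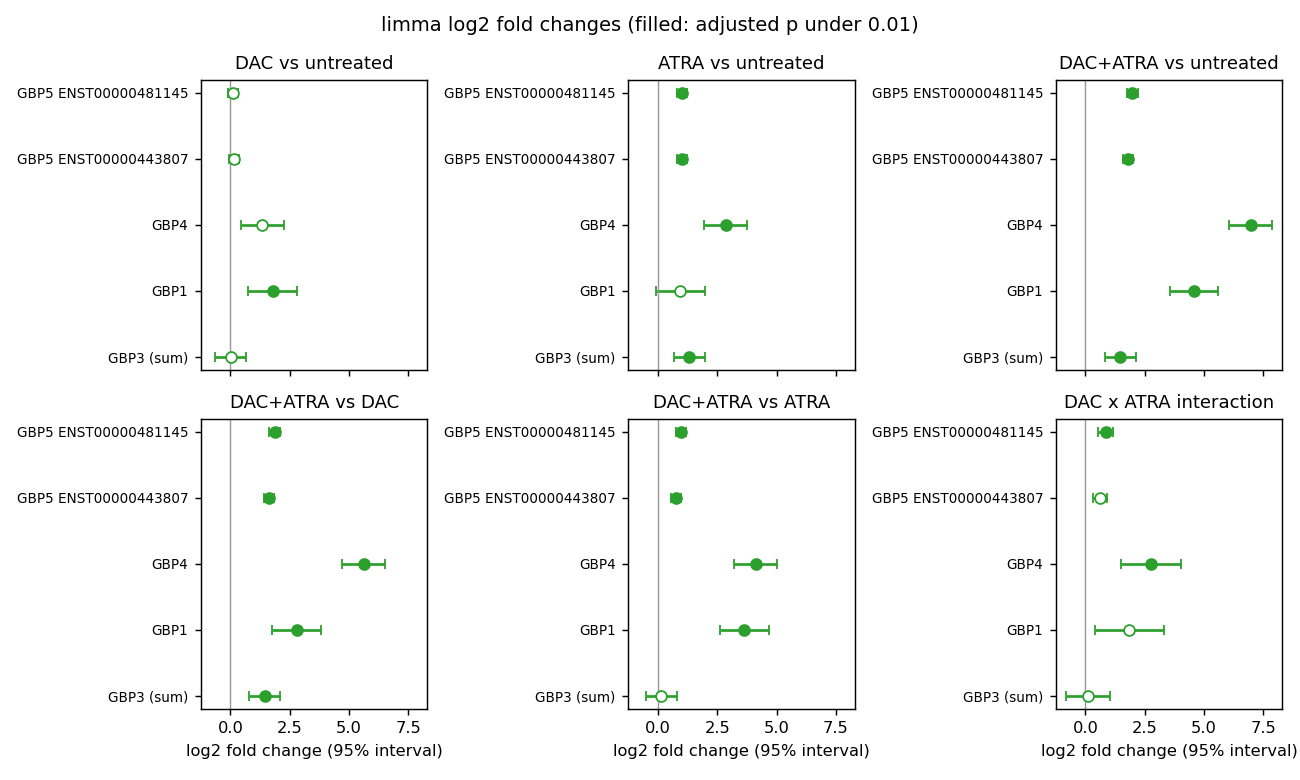
Log2 fold changes (x axes, log2(normalized read count + 1) scale) with 95% intervals from limma, for GBP5, GBP4 and GBP1 transcripts and for GBP3 summed over transcripts, in 5 comparisons and for the DAC × ATRA interaction. Filled points passed an adjusted p of 0.01. GBP4 has the highest point in each panel except DAC against untreated cells, where GBP1 is at 1.78 and GBP4 at 1.35.

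Whether the response to both agents differed from the sum of the single responses was tested as the DAC × ATRA interaction, in log2 units. It was 2.77 for GBP4 (SE 0.61, adjusted p = 0.00853), which passed, where 0.787% of protein-coding transcripts were called higher, although GBP4 had entered the fit through the DAC + ATRA libraries. It was 1.85 for GBP1 (SE 0.70, adjusted p = 0.157) and 0.60 for ENST00000443807 of GBP5 (SE 0.14, adjusted p = 0.0137), neither of which passed. ENST00000481145 of GBP5 passed with 0.85 (SE 0.15, adjusted p = 0.000908, where 0.527% of all transcripts were called higher), as did GBP5 summed over its transcripts with 0.73 (SE 0.13, adjusted p = 0.00085, where 0.908% of symbols were called higher). For summed GBP3 it was 0.12 (95% interval -0.81 to 1.05, adjusted p = 0.927). The GBP4 interaction was lost with a pseudocount of 0.1 (0.92, adjusted p = 0.794), with edgeR and TMM (2.67, adjusted p = 0.255), with DESeq2 (2.54, adjusted p = 0.112) and in 9 of 12 fits that left out a library, whereas the GBP5 sum passed in all 12 of these and with both tools.

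On the linear scale, the level with DAC + ATRA lay above the untreated level plus the gains with each agent alone, by 1182 ± 46.6 (SE, normalized reads) in summed GBP5 and by 37.9 ± 7.89 in GBP1, beside 183 ± 19.7 in GBP4. For summed GBP3 the excess was 3.18 ± 8.26, less than its error.

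For each GBP gene tested among protein-coding transcripts, the 3 symbols whose levels followed it most closely were named by Pearson's r over the 12 libraries, which share their 4 groups. For GBP4 they were DVL3 (r = 0.974), a Dishevelled protein of Wnt signaling, PVRL1 (0.972), a nectin adhesion molecule, and SLC16A3 (0.967), a lactate transporter. For GBP5 they were APOL6 (0.987), an apolipoprotein L inducible by interferon, CD180 (0.984), a Toll-like receptor homolog, and IRAK2 (0.983), a kinase of Toll-like receptor signaling. CD180 went from 748 ± 52.5 normalized reads in untreated cells to 1107 ± 60.1 with DAC, 2815 ± 235 with ATRA and 5224 ± 356 with both agents, in the same order as GBP5. For GBP1 they were CYFIP2 (0.964), ATP11B (0.964) and GPR157 (0.963). Within the family, values summed by symbol gave r = 0.957 for GBP4 with GBP5, 0.890 for GBP1 with GBP4 and 0.525 for GBP1 with GBP3.

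The genes that act before and beside the GBPs were taken from lists of ligands, receptors, transcription factors, inhibitors and partners, using the most abundant protein-coding transcript of each gene. List members whose transcript did not reach the filter were not tested, also where other transcripts of the gene held reads. Counts are set beside those of 7620 symbols, of which 2672 were higher and 1120 lower with DAC + ATRA at a median log2 fold change of 0.22. With DAC 2542 of them were higher and 672 lower, and with ATRA 543 were higher and 230 lower. None of the 9 interferon ligands listed reached the filter. IFNG, the main inducer of GBPs, was listed at 0. IFNB1 had 32 reads, at 1.22 ± 1.06 normalized reads in untreated cells, 4.47 ± 2.31 with DAC, 0.629 ± 0.556 with ATRA and 4.44 ± 1.92 with both agents.

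Among interferon receptors and their kinases, 7 of 8 tested were higher with DAC + ATRA and 0 lower (median 0.89), against 3 higher with DAC and 2 with ATRA. The largest difference was in IFNLR1, the interferon lambda receptor chain, which had 0 reads in untreated libraries and averaged 78.7 with DAC and 60.8 with DAC + ATRA. With ATRA it averaged 0.581, so it entered the fit through the groups with DAC, in which it was high, and its call among the 7 carries that selection. Its fitted value of 5.93 with DAC + ATRA depends on the pseudocount. The smallest was in IFNGR2, an interferon gamma receptor chain, at 0.16 (adjusted p = 0.716). IFNGR1, the ligand-binding chain, had 13 reads on its most abundant protein-coding transcript and was not tested. JAK2, a kinase on the interferon gamma receptor, rose by 0.99 with DAC + ATRA (adjusted p = 2.45e-08), and its interaction passed at 0.63 (adjusted p = 0.00851, limma).

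Of 12 interferon transcription factors listed, 6 were tested. With DAC + ATRA 4 of these 6 were higher and 0 lower (median 0.93), with 4 higher with DAC and 1 with ATRA. STAT2, IRF9 and NLRC5 had 0 reads on the transcript used here but 3290, 1745 and 548 over all their transcripts, and were not tested. IRF1, the factor that mediates GBP induction by interferon gamma, measured 53.5 in untreated cells, 125 with DAC, 338 with ATRA and 694 with both agents on average. It rose by 1.21 with DAC (adjusted p = 2.85e-07), 2.62 with ATRA (adjusted p = 1.2e-11) and 3.67 with both (adjusted p = 5.76e-15), and its interaction did not pass (-0.17, adjusted p = 0.727). CIITA, the master regulator of MHC class II genes, had the largest difference with DAC + ATRA, 4.14, and SPI1, a myeloid factor, the smallest at -0.10 (adjusted p = 0.586). CIITA averaged 2.76 in untreated cells and 5.42 with ATRA, against 23.0 with DAC and 64.4 with both agents. It entered the fit through the groups in which it was high, so its call among the 4 carries that selection.

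Interferon signaling inhibitors were higher in 3 of 5 tested with DAC + ATRA and lower in 0 (median 0.95). SOCS1, which blocks JAK kinases, rose by 5.55 with DAC and 5.86 with DAC + ATRA. It averaged 3.38 in untreated cells and 12.3 with ATRA, against 154 with DAC and 189 with both agents. SOCS1 thus met the filter mainly through the groups in which it was high, so its call carries that selection. Its fitted values also depend on the pseudocount. PIAS1 was lowest at -0.07 (adjusted p = 0.648). USP18, which removes ISG15 from proteins, was higher with DAC (0.76) and with ATRA (0.81), but its interaction was negative, -1.14 (adjusted p = 4.58e-05, limma).

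**Figure D4:**
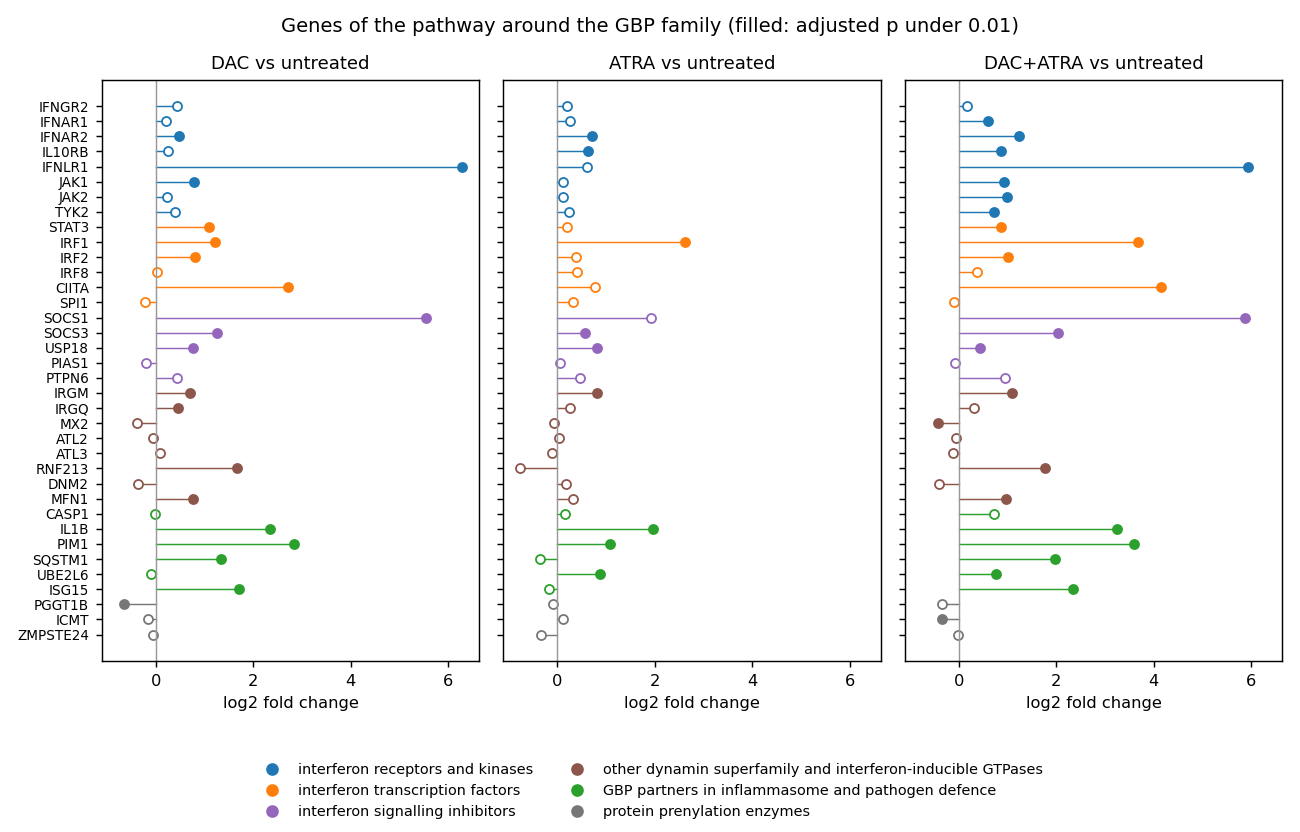
Log2 fold changes against untreated cells (x axes) of the tested genes of 6 lists around the GBP family, with filled points at an adjusted p under 0.01. IRF1 is filled in all 3 panels, at 1.21, 2.62 and 3.67, and the other GTPases lie between -0.43 and 1.78 with DAC + ATRA.

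Other dynamin-superfamily and interferon-inducible GTPases gave 3 of 8 tested higher and 1 lower with DAC + ATRA (median 0.13), under the median of all symbols. RNF213, a giant ubiquitin ligase, was highest at 1.78 (adjusted p = 0.000109), and MX2, an antiviral GTPase, fell by 0.43 (log2 scale, adjusted p = 0.00732). The tested transcript held 228 of 1306 reads of RNF213 and 3257 of 8654 of MX2, so these are values of single transcripts. That of RNF213 averaged 8.56 in untreated cells and 4.79 with ATRA, against 31.0 with DAC and 31.6 with both agents. It entered the fit mainly through the groups in which it was high, and its call carries that selection. MX1 had 46 reads on its most abundant protein-coding transcript and 393 over all its transcripts, and was not tested. Of 17 partners of GBPs in inflammasome and pathogen defense listed, 6 were tested, and 5 of these were higher with DAC + ATRA and 0 lower (median 2.16). PIM1, a kinase that phosphorylates GBP1, had the largest difference at 3.58 (adjusted p = 7.93e-16), and CASP1, the inflammasome protease, the smallest at 0.72 (adjusted p = 0.0102). ISG15, among the 5, averaged 3.68 in untreated cells and 3.00 with ATRA, against 13.5 with DAC and 23.0 with both agents. It entered the fit through the groups in which it was high, so its call carries that selection. CASP4 had 3 reads on its most abundant protein-coding transcript and 1223 over all transcripts, GSDMD and AIM2 were listed at 0 over all their transcripts, and none of the 3 was tested. Of the enzymes that prenylate and process CaaX proteins, 0 of 3 tested were higher and 1 lower, ICMT, which fell by 0.34 (log2 scale, adjusted p = 0.00978), while ZMPSTE24 was highest at -0.01 (adjusted p = 0.943) and PGGT1B lowest at -0.35 (adjusted p = 0.0283).

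Genes flanking the cluster on chromosome 1 were examined as the same kind of comparison. Of 7 tested, 3 were higher and 2 lower with DAC + ATRA (median -0.01). LMO4, a transcriptional cofactor, was highest at 1.26 and LRRC8D, a volume-regulated anion channel subunit, lowest at -1.57 (adjusted p = 0.000445). ZNF326 fell by 0.52 (log2 scale, adjusted p = 0.000675).

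The label of the cells was checked against marker lists. Of 10 myeloid markers, MPO, CD33, CD4, SPI1, ITGAM, LYZ and FCGR1A were detected in all libraries and CD68 stayed under 10. PTPRC, the CD45 antigen of leukocytes in general, was listed at 0 over all its transcripts in every library, so for other genes at 0 in this table, such as IFNG, GSDMD and AIM2, a 0 is reported as listed and not as absence of the mRNA. The summed level of the 10 myeloid markers, mostly MPO, was 54666 to 61100 in untreated cells, 26706 to 40434 with DAC, 32684 to 44763 with ATRA and 23578 to 25069 with DAC + ATRA. The list did not move as one. Of 6 myeloid markers tested with DAC + ATRA, MPO fell by 1.80 (log2 scale, adjusted p = 6.73e-09), whereas ITGAM rose by 3.75 (adjusted p = 2.08e-17) and LYZ by 2.73 (adjusted p = 4.53e-12), and 3 did not pass. Of 15 markers of other cell types, 9 stayed under 10 in every library, with HBB and COL3A1 among those at 0. The summed level of these 15 markers was 297 to 317, 3226 to 3235, 535 to 727 and 4375 to 4769 in the same order of groups. PECAM1 made up most of it with DAC (2336 to 2407) and with DAC + ATRA (2835 to 3186). Of 5 tested, 5 were higher with DAC and with DAC + ATRA and 3 with ATRA. KRT8, 1 of the 5, averaged 0.303 in untreated cells and 0 with ATRA. It entered the fit through the groups with DAC, in which it was high. From DAC to DAC + ATRA 1 of the 5 was higher, CD79A (1.38), and 1 lower, COL1A1 (-0.73, adjusted p = 0.00783, limma). The summed level was highest in the group in which GBP1, GBP4 and GBP5 were highest. Its part in the GBP results was not tested.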

How the data were processed

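RNA-seq of 12 U937 libraries was analysed from a table of deposited transcript values. Per the paper's methods and the labels, the authors used FastQC, STAR with the hg38 genome, HTSeq for read counts and DESeq2 (versions not given in the sources used here). The libraries were rRNA-depleted, paired-end and strand-specific. The deposited signal values are counts divided by the DESeq2 size factor of each library (0.809 to 1.20); 100% of values were whole reads times one step per library, to within 5.68e-05 reads, although the step of DAC library 6 lies so near 1 that a check for steps is not decisive there. Transcript types, positions and overlaps came from GENCODE 44, which matched 174768 of 197782 transcripts.

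Values were tested as log2(value + 1) with limma 3.58.1 (R 4.3.3) with trend and robust settings, all 12 libraries in one fit, for 9016 protein-coding transcripts with at least 10 normalized reads in at least 3 libraries, with Benjamini-Hochberg adjustment and a threshold of 0.01. Fold changes on this scale understate those of low transcripts. The same fit was run on 19373 transcripts of all types and on 10240 symbols after summing transcripts. Recovered reads were tested with edgeR 4.0.16 and DESeq2 1.42.0 as alternatives, with other scalings, filters, a pseudocount of 0.1 and each library left out. Single values and GBP2 were compared with exact two-sided permutation tests (smallest p 0.1), and read ratios have exact conditional 95% intervals that cover counting error only. The fits were tested on simulated data.

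All GBP1 to GBP7 transcripts with reads were named. List members were represented by their most abundant protein-coding transcript; those with the largest and smallest DAC + ATRA difference and genes chosen by name (IRF1, JAK2, IFNGR1, CASP1, CASP4, GSDMD and AIM2) were described, and some further list genes, such as CIITA, SOCS1, USP18, MX1 and IFNB1, were named after their values were seen. The members and lists were chosen with earlier results of these data known. Protein sequences were not used here. One gene of that rule and 1 marker are not reported here.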

Additional observations from a re-analysis of the deposited data

Results flagged for a closer look

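The difference between the response to ATRA with and without DAC passed the limma test for GBP4, for one GBP5 transcript and for summed GBP5. For GBP4, alone or summed over its transcripts, the DAC × ATRA interaction was 2.77 on the log2 scale (adjusted p = 0.00853 by transcript and 0.0062 by symbol, limma). GBP4 entered the fit through the DAC + ATRA libraries, in which it was high, so its adjusted p carries that selection. The single-agent groups hold 9 and 34 GBP4 reads, and with a pseudocount of 0.1 in place of 1 the interaction was 0.92 (adjusted p = 0.794). It was also lost with edgeR and TMM (adjusted p = 0.255), with DESeq2 (adjusted p = 0.112) and in 9 of 12 limma fits that left out a library. For the retained-intron transcript ENST00000481145 of GBP5 the interaction was 0.85 (adjusted p = 0.000908), and for GBP5 summed over its transcripts it was 0.73 (adjusted p = 0.00085). The protein-coding GBP5 transcript ENST00000443807 did not pass in limma (0.60, adjusted p = 0.0137), but passed with edgeR and TMM (0.70, adjusted p = 0.00396), with DESeq2 (0.66, adjusted p = 0.000419) and under library size scaling (0.65, adjusted p = 0.0064).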

How the results depend on the processing

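No paired analysis was possible because the columns of the table carry a running number and no replicate number. Against untreated cells, DAC called 1 of 3 protein-coding GBP transcripts in the fit as reported. It called 0 with edgeR under TMM or the deposited size factors, with DESeq2, with the 2 compared groups alone and with at least 10 normalized reads in every library, and 2 without a filter. With a pseudocount of 0.1 it also called 1, but this was GBP4 (adjusted p = 0.00769, limma) and not GBP1. At an unadjusted p under 0.05, edgeR and DESeq2 each gave 1. With each library left out the count ranged from 0 to 2, being 0 without untreated library 1, untreated library 3 or DAC library 5 and 2 without untreated library 2. Requiring 10 normalized reads in every library left GBP5 as the 1 transcript tested, so the counts fell from 2 to 1 with ATRA and from 3 to 1 with DAC + ATRA against untreated cells, DAC or ATRA, and from 1 to 0 for the interaction. Testing all transcripts gave 5 from DAC to DAC + ATRA, as the GBP3 and GBP5 transcripts of other types joined. The interaction count of 1 became 0 with edgeR under the deposited size factors and with a pseudocount of 0.1, and 2 over all transcripts and over symbols. Leaving out a library gave 0 to 1, and 0 without untreated library 2, DAC library 4, 5 or 6, ATRA library 7 or DAC + ATRA library 10, 11 or 12. edgeR with TMM, DESeq2 and library size scaling also called 1, but this was GBP5 (0.70, 0.66 and 0.65) and not GBP4.

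Directions turned only where differences were small. With DAC, ENST00000443807 of GBP5 was at -0.052 with edgeR and TMM, -0.021 with DESeq2 and -0.064 with edgeR and TMM without DAC library 6, a check added after seeing the data, and ENST00000481145 was at -0.012 under library size scaling. Summed GBP3 with DAC was at -0.075 with edgeR, -0.040 with DESeq2 and -0.097 under library size scaling, and ranged from -0.17 to 0.23 with a library left out (below 0 without untreated library 1 or DAC library 6). From ATRA to DAC + ATRA it ranged from -0.088 to 0.43 (below 0 without ATRA library 7 or DAC + ATRA library 12), and its interaction from -0.11 to 0.41 (below 0 without DAC library 4, ATRA library 7 or DAC + ATRA library 12). The ATRA call of summed GBP3 was also lost under library size scaling (1.26, adjusted p = 0.0131, limma). The alternatives for summed GBP3 and GBP5 and for ENST00000481145 were added after seeing the data. Of 687 values of single members under an alternative, 631 kept direction and side of the threshold, 33 lost it, 9 gained it and 14 turned. The cause was not tested. Read depth limits GBP2, GBP6 and GBP7, and the single-agent values of GBP1 and GBP4. For GBP2 the assignment of reads among its transcripts is a limit as well.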
